A study of Mus musculus with 6 samples.

Results

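Mirtrons are short hairpins cut out of pre-mRNA by the splicing machinery. In the canonical pathway the Drosha and DGCR8 complex frees a miRNA hairpin from a longer transcript, and Dicer then trims it. A conventional mirtron skips the first cut, because the whole spliced intron, once its lariat is opened, already folds into a hairpin that Dicer can use. A tailed mirtron meets the splice site at only one end, and the extra intron sequence at its other end has to be removed by nucleases. The mouse annotation names a block of such hairpins Mir6896 to Mir7093. All rows of the deposited count table with a name in that span were taken, which gave 195 of the 1155 rows; the rule uses names only, though the block was picked for description with earlier results of these data known.

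The counts come from small RNA libraries of mouse embryonic fibroblasts, connective tissue cells taken from embryos and grown in serum-containing medium. There were 3 wild-type (WT) libraries and 3 from cells with the genotype Fbxw7 KO. FBXW7 is the part of an SCF ubiquitin ligase that binds its substrates, among them Myc and cyclin E. The labels give neither the age of the embryos nor how the gene was deleted, and transcripts of Fbxw7 were not analysed here. Nothing in them states that replicates are independent embryos or cultures, so p-values reflect the spread between these libraries, which may be technical. Libraries held 2932439 to 5019700 counts, the WT libraries together 1.35 times the Fbxw7 KO libraries. Of 11 fibroblast and mesenchymal miRNAs listed, the 9 with a row held 58.9% to 59.4% of counts in WT and 60.0% to 65.3% in Fbxw7 KO. Muscle miRNAs held at most 0.0405% of any library and epithelial miRNAs at most 0.00618%. The liver row Mir122 held 0.00165% to 0.00183% in WT and 0.000693% to 0.00232% in Fbxw7 KO. The 3 blood cell rows, with Mir142 at 0, held 0.000153% to 0.000299% in WT and 3.41e-05% to 0.000127% in Fbxw7 KO. Of the 3 neuronal rows Mir124a-1 and Mir9-1 were at 0 and the list held at most 3.41e-05%, and the endothelial row Mir126a was at 0.

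The name mirtron was checked against the introns of GENCODE M21 (mm10). All 195 hairpins overlapped an intron of a protein-coding gene on their own strand over most of their length, in 190 host genes. Of these hairpins 181 (92.8%) ended exactly at the 3′ splice site (the acceptor). Only 12 (6.15%) also began exactly at the 5′ splice site (the donor) and thus filled the intron, as a conventional mirtron does. Another 169 (86.7%) met the acceptor alone and so have the form of 5′-tailed mirtrons, 4 met the donor alone and 10 met neither. Of the 14 that missed the acceptor, 9 ran 1 to 7 bases past it into the exon. Among the other 960 rows, 23 (2.4%) met a splice site at either end, against 185 of the 195 (94.9%) here.

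The sequences show the splice sites themselves. The first hairpin below fills its intron and the second meets only the acceptor; capitals mark the intron's first and last bases where a hairpin end coincides with a splice site. They are RefSeq sequences (GRCm38.p6), written 5′ to 3′, from chromosome 13, 55477681 to 55477776, minus strand, and chromosome 10, 80278164 to 80278232, plus strand.

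Mir6944 hairpin: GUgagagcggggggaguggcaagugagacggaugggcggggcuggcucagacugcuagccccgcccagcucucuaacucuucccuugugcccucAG

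Mir6911 hairpin: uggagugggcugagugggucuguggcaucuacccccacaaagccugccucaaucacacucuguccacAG

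RefSeq gave a hairpin for 174 of the 195 members. Of these, 161 (92.5%) ended in AG, against 8.64% of the 752 other rows with a RefSeq hairpin, and 25 (14.4%) began with GU. The bases that splicing reads at the end of an intron, a run of pyrimidines closed by AG, lie in the 3p arm. That arm held 71.7% C and U on average in 171 members, against 53.7% in 500 arms of other rows. The 5p arm paired with it held 44.2% G, against 28.9%. These shares describe how the class is defined and built and were not tested.

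The mature arms of the 5 members with the most counts, and of the pair with the smallest unadjusted p between genotypes among those tested (Mir6945 and Mir6994), are shown with the seed, bases 2 to 8, in capitals.

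mmu-miR-6944-5p: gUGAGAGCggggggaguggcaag

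mmu-miR-6944-3p: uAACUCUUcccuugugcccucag

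mmu-miR-6911-5p: uGGGCUGAgugggucuguggcau

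mmu-miR-6911-3p: uCAAUCACacucuguccacag

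mmu-miR-7068-5p: gUGAGGCUcaguauggggugg

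mmu-miR-7068-3p: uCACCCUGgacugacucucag

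mmu-miR-7093-5p: cAGGAUGAcagaaggaaaaccu

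mmu-miR-7093-3p: uUUCCAUCugucauccugcag

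mmu-miR-7070-5p: gUGAGGGGagcugaggcagga

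mmu-miR-7070-3p: cAGGCUCUccuucccuccag

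mmu-miR-6945-5p: uCCUGGGAggggcagccccugg

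mmu-miR-6945-3p: uCUGAGCUcugcccuucccau

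mmu-miR-6994-5p: aCAAAGGUgggugaagccgguga

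mmu-miR-6994-3p: aACGAUCUucuccgucuuugc

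In Mir6944, Mir7068 and Mir7070, which fill their introns, the 5p arm starts with the intron's own GU, so that its seed is the 5′ splice site sequence. The block does not form 1 seed family. Its 342 mature arms, from 179 members, carried 316 distinct seeds, and 23 seeds occurred in more than 1 member, never in more than 3. The seed CACCCUG was shared by Mir7018, Mir7023 and Mir7068. Both arms of a hairpin fall into 1 count, so which arm the reads came from, and whether they were mature miRNA or other pieces of the host transcript, cannot be read from the table. Of the 195 hairpins, 36 overlap an annotated exon on their own strand, Mir7068 among them.

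The mirtrons were many and faint. A read was counted for 144 of the 195 rows (73.8%), a larger share than among the other rows (54.9%), yet the block held 2589 of 23121678 counts, 0.0112%. In 51 rows no library had a count, 16 rows had 1 count in all, and the median row had 3. Each library showed 73 to 95 of the rows. Only 40 rows had a count in all 6 libraries, and 19 had at least 3 in each. No member overlaps another row of the table, and none of the 174 hairpins shares a run of 20 bases with the RefSeq hairpin of another row. Reads with several alignments were left out of the counts. Matches to rows without a RefSeq hairpin, or elsewhere in the genome, were not searched, so how many reads were lost this way is unknown. For 14 members a gene lies on the opposite strand, and strand was ignored in counting.

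The counts were concentrated. Mir6944 alone held 11.9%, the 5 rows over 100 counts (Mir6944, Mir6911, Mir7068, Mir7093 and Mir7070) held 32.2%, and 12 rows held more than 50% of the block's counts. The 12 hairpins that fill their intron took 25.3% of the counts, 654, and the 169 that meet the acceptor alone took 68.9%, 1785. A count was found for 8 of the 12 and for 126 of the 169. Among the 12, 4 ranked within the 11 rows with the most counts and 4 (Mir6923 in Myh3, Mir6974 in Lta, Mir6981 in Arap3 and Mir7088 in Mst1) were at 0; these 4 are named because of their values.

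**Figure D1:**
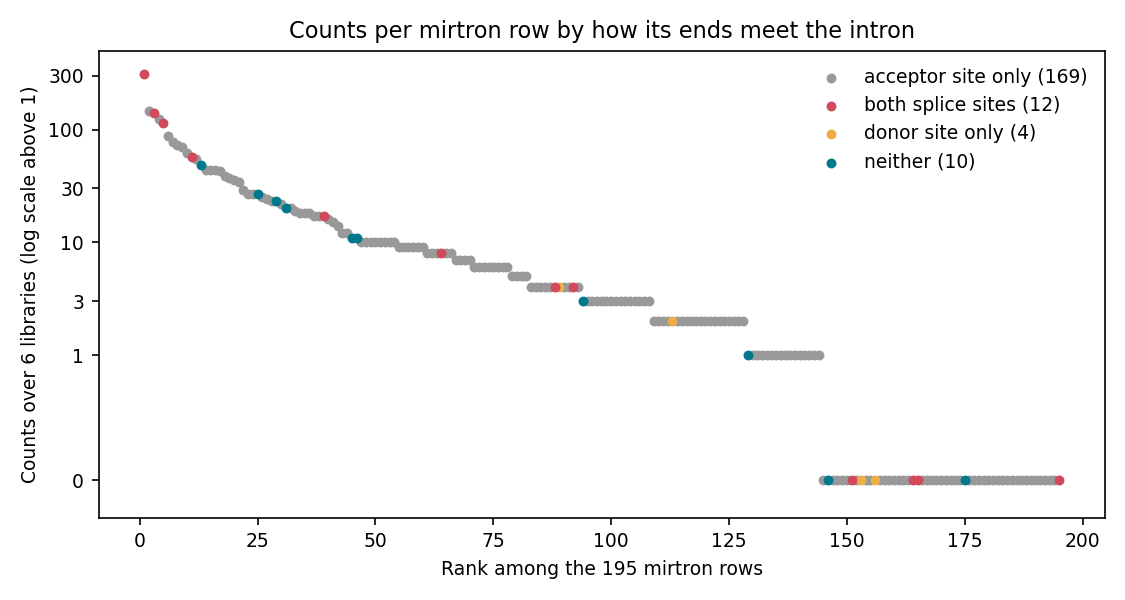
Counts over all 6 libraries (vertical axis, log scale above 1) of each of the 195 mirtron rows, ranked from most to fewest (horizontal axis), coloured by which ends coincide with a splice site in GENCODE M21. The row with the most counts, Mir6944, has 309, and 51 rows lie at 0.

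Summed as a class, the mirtrons had a lower mean in Fbxw7 KO, but the genotypes overlapped. In CPM (counts scaled to a common library total, here after TMM factors), WT replicates 1 to 3 had 105.5, 120.5 and 135.2, and Fbxw7 KO replicates 1 to 3 had 106.9, 115.2 and 91.7. Fbxw7 KO replicates 1 and 2 lay within the WT range and replicate 3 below it. Means were 120.4 ± 14.8 CPM for WT and 104.6 ± 11.9 for Fbxw7 KO (SD, n = 3), a difference of −15.8 CPM that is little more than the SD within either genotype, and the sum was not tested. In such bulk libraries fewer cells that carry an RNA and less of it per cell cannot be told apart, and the levels of the host transcripts were not analysed here. The difference was −8.43 CPM without WT replicate 3 and −9.36 CPM without Fbxw7 KO replicate 3. Pooled over libraries, the ratio of Fbxw7 KO to WT was 0.868 (95% interval 0.802 to 0.94, exact binomial, which covers counting error only). The 13 rows tested below differed by −1.42 CPM and overlapped between genotypes. The 182 fainter or more uneven rows left out of that test differed by −14.4 CPM. They had 53.77 to 64.99 CPM in WT and 40.22 to 52.31 in Fbxw7 KO, without overlap. Neither of these sums was tested. A matching sum over the untested rows outside the block is not given here, so the difference cannot be called particular to mirtrons.

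By the position of their ends, the groups of hairpins are given side by side, and whether the genotype difference varied between them was not tested. Hairpins that fill their intron had 27.6 ± 5.11 CPM in WT and 29.86 ± 1.12 in Fbxw7 KO. Acceptor-only hairpins had 73.84, 89.38 and 94.36 CPM in WT and 70.66, 76.09 and 58.92 in Fbxw7 KO, again with overlap. The other 14 had 6.919 ± 0.323 CPM in WT and 6.187 ± 2.03 in Fbxw7 KO. WT libraries also showed more members, 91 to 95 against 73 to 81, and together they were deeper. Over all rows the numbers were apart in the same way, 513 to 532 in WT against 484 to 508 in Fbxw7 KO. Thinned by calculation to the 2932439 counts of the smallest library, the expected numbers of members were 79.25 to 86.57 in WT and 72.34 to 78.92 in Fbxw7 KO. These did not overlap, but WT replicate 1 at 79.25 and Fbxw7 KO replicate 1 at 78.92 were nearly equal. The difference was not tested. Numbers over all rows were not thinned, so the gap cannot be read as a result about the members.

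A single mirtron outside the block matched the block as a whole. Mir1981, which fills an intron of Marc2, had 2557 counts against 2589 for the 195 rows together. It had 96.91, 139.1 and 136.2 CPM in WT and 100.9, 110.4 and 81.97 in Fbxw7 KO (log2 fold change −0.34, SE 0.196, edgeR adjusted p = 0.225). Mir3102, in Arhgef17, stood at 38.26 ± 5.59 CPM in WT and 42.96 ± 2.36 in Fbxw7 KO (adjusted p = 0.528, edgeR), and Mir877, in Abcf1, at 11.26 ± 1.31 and 10.17 ± 1.76 (adjusted p = 0.695, edgeR). Of the 5 miRNAs outside the block listed as splicing-derived, Mir702 (42 counts) and Mir1224 (1 count) did not meet the filter described below. The other 3 were tested, and 0 had an edgeR adjusted p under 0.05, against 72 of all 283 tested rows (25.4%). Mir702 met neither splice site exactly: it starts 9 bases inside a coding exon of Plod3 and stops 2 bases short of the acceptor.

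**Figure D2:**
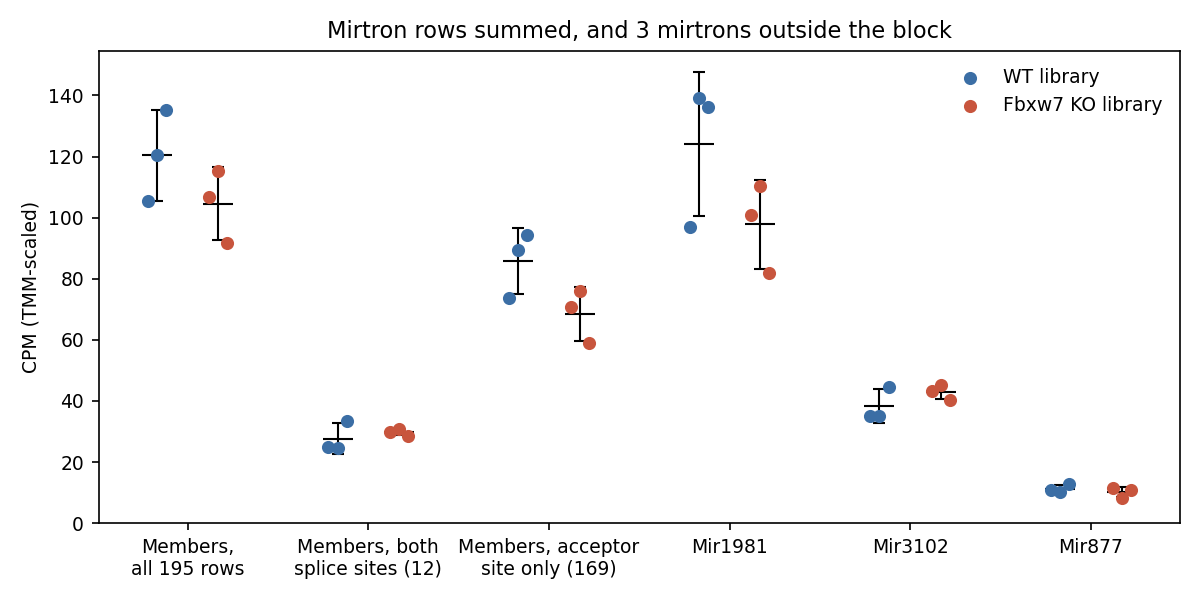
CPM on TMM-scaled library totals (vertical axis) of the summed mirtron rows, of those that fill their intron, of those that meet the acceptor site only, and of Mir1981, Mir3102 and Mir877; points are libraries (blue WT, red Fbxw7 KO), bars the mean ± SD. The class sum lies between 91.7 and 135.2 CPM, and the genotypes overlap in all 6 columns.

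Row by row, 13 of the 195 mirtrons had enough reads for the test between genotypes, which asks for the CPM of 10 counts in a library of median size (2.68 CPM before TMM scaling) in at least 3 libraries. None passed. Of all 283 tested rows, 72 (25.4%) passed (edgeR quasi-likelihood test, Benjamini-Hochberg adjusted p under 0.05), against 0 of these 13. An unadjusted p under 0.05 was found for 2 of the 13 by edgeR (35.7% of all tested rows) and for 0 by DESeq2, which also called 0. The 2 were Mir6945 and Mir6994, which met the filter in libraries of a single genotype only. The filter itself thus favoured a difference in them. Of the 13, 6 had a positive and 7 a negative log2 fold change, with a median of −0.05 where all tested rows had 0.05. Over all 144 members with a count, the share of counts pooled by genotype was higher in Fbxw7 KO for 61 and lower for 83, against 337 and 334 over all 671 rows with a count; this tally was not tested, and many of these members rest on a few counts. These rows are among the faintest tested: their totals ran from 43 to 309 counts where the median tested row had 1983, and of the 74 tested rows in that span 9 passed. The SE of their log2 fold changes ran from 0.194 to 0.51 (median 0.364, against 0.199 over all tested rows).

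Mir6944 had the highest level within the block, also per length (mean 142.8 in the authors' FPKM), but lay below Mir1981 and Mir3102 outside it (1349 and 390.7). It is the whole of a 96-base intron of Dbn1, which encodes the actin-binding protein drebrin. WT replicates 1 to 3 had 56, 49 and 51 counts and Fbxw7 KO replicates 54, 43 and 56, which is 11.24, 11.65 and 13.26 CPM against 17.03, 14.61 and 14.34 CPM. All Fbxw7 KO libraries lay above all WT libraries. The log2 fold change was 0.35 (SE 0.194, edgeR adjusted p = 0.219), so the row did not pass.

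Mir6945 lies 29849 bases from Mir6944 on chromosome 13 (55507625 to 55507692, minus strand), at the acceptor of a 239-base intron of Pdlim7, a LIM domain protein of the actin cytoskeleton, and overlaps an untranslated exon of another transcript. Its difference had the opposite sign. Counts were 15, 21 and 17 in WT and 8, 6 and 6 in Fbxw7 KO, or 4.14 ± 1.02 against 2.033 ± 0.493 CPM (SD, n = 3), with no overlap. It entered the test through its WT libraries alone. The log2 fold change was −1.02 (SE 0.364, unadjusted p = 0.0208 and adjusted p = 0.0746, edgeR), and adjusted p over all alternatives ran from 0.0624 to 0.242.

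Mir6994, at the acceptor of a 324-base intron of Patl1, an mRNA decay factor (chromosome 19, 11923728 to 11923800, plus strand), had 3, 8 and 4 counts in WT and 9, 8 and 11 in Fbxw7 KO. In CPM, WT replicates had 0.6019, 1.902 and 1.04 and Fbxw7 KO replicates 2.839, 2.717 and 2.818, and the genotypes did not overlap. It entered the test through its Fbxw7 KO libraries alone. The log2 fold change was 1.25 (SE 0.46, unadjusted p = 0.0239 and adjusted p = 0.0836, edgeR). Of 15 alternatives 1 called it, limma on log2(FPKM + 10), with adjusted p = 0.0498, while the others reached up to 0.2. Mir6944, Mir6945 and Mir6994 were the only ones of the 13 whose genotypes did not overlap, where 43.8% of all tested rows did not. In Mir6945 and Mir6994 all libraries of 1 genotype reached the filter's cutoff and none of the other did. Before TMM scaling their separation was therefore fixed by how they entered the test, and it adds no evidence.

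**Figure D3:**
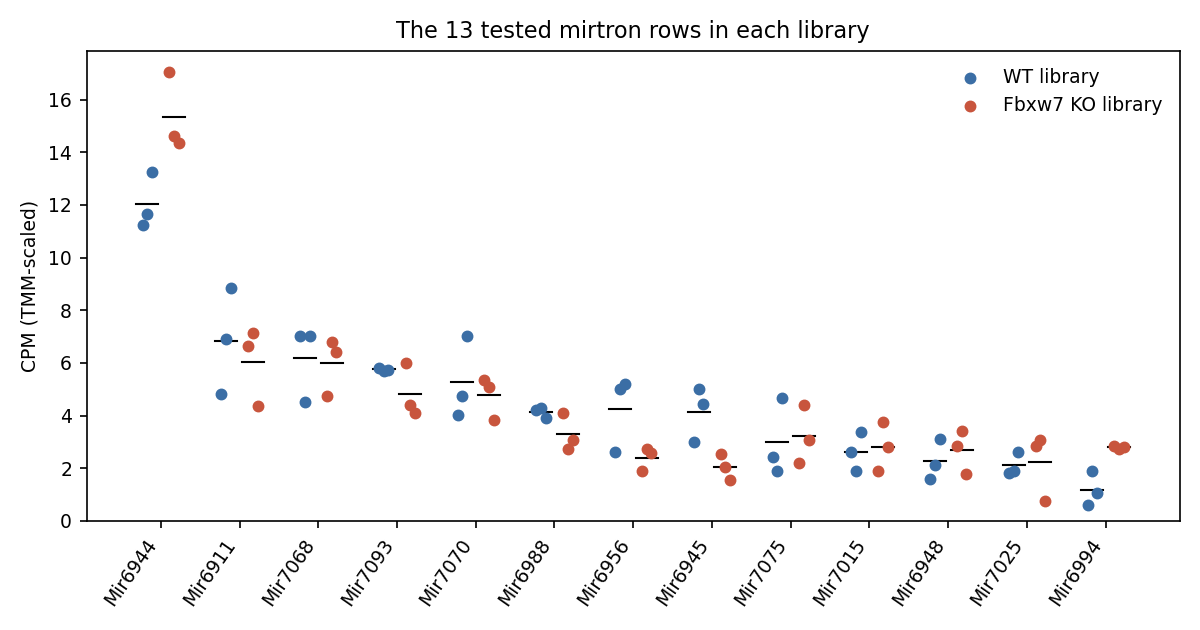
CPM on TMM-scaled totals (vertical axis) of the 13 tested mirtrons in each library (blue WT, red Fbxw7 KO; lines are means), ordered by total counts. Mir6944 lies at 11.24 to 17.03 CPM and the highest other value is 8.838 CPM, in Mir6911; the genotypes are apart in Mir6944, Mir6945 and Mir6994.

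The other hairpins that fill their introns and could be tested did not pass. Mir7068 makes up a 74-base intron of Cherp, a calcium homeostasis and splicing protein (chromosome 8, 72470016 to 72470089, minus strand). It had 35, 19 and 27 counts in WT and 15, 20 and 25 in Fbxw7 KO (log2 fold change −0.05, SE 0.281, edgeR adjusted p = 0.92). Mir7070 makes up an 86-base intron of Fbxw9, an F-box and WD repeat gene like Fbxw7 (chromosome 8, 85062086 to 85062171, plus strand). It had 20, 20 and 27 counts in WT and 17, 15 and 15 in Fbxw7 KO (log2 fold change −0.14, SE 0.309, edgeR adjusted p = 0.776). In both, CPM of the genotypes overlapped, and both signs turned when single libraries were left out. Mir7091, the 79-base intron of Dnase1l1, with 37 WT and 20 Fbxw7 KO counts, had 57 in all but did not reach the filter's 2.68 CPM in 3 libraries and was not tested.

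Among the acceptor-only hairpins, Mir6911 in Dazap1, an RNA-binding protein gene, had 24, 29 and 34 counts in WT and 21, 21 and 17 in Fbxw7 KO (log2 fold change −0.18, SE 0.315, edgeR adjusted p = 0.716). Mir7093 in Armcx3, a gene for a mitochondrial protein on the X chromosome, had 5.747 ± 0.062 CPM in WT and 4.836 ± 1.01 in Fbxw7 KO (log2 fold change −0.26, adjusted p = 0.506, edgeR). Mir6988 lies 23 bases from the donor of an 82-base intron of Syvn1, an endoplasmic reticulum ubiquitin ligase. It had 4.13 ± 0.203 CPM in WT and 3.297 ± 0.718 in Fbxw7 KO (adjusted p = 0.458, edgeR). Mir6956, in the actin-bundling gene Triobp and opposite Gm10865, had 4.266 ± 1.44 CPM in WT and 2.391 ± 0.438 in Fbxw7 KO (log2 fold change −0.80, SE 0.38, adjusted p = 0.166, edgeR).

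Mir7075 in the telomere gene Terf2 (log2 fold change 0.12), Mir7015 in the Arf regulator Smap2 (0.10), Mir6948 in the apoptosis and splicing factor gene Acin1 (0.22) and Mir7025 (0.03) completed the tested rows, with edgeR adjusted p of 0.73 to 0.97. Their signs are within error and turned under other settings. Mir7025 does not have the position of a mirtron: it starts 30 bases inside a coding exon of Pdgfra, the PDGF receptor that marks fibroblasts, and runs into the next intron without reaching the acceptor. It had 9, 8 and 10 counts in WT and 9, 9 and 3 in Fbxw7 KO.

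**Figure D4:**
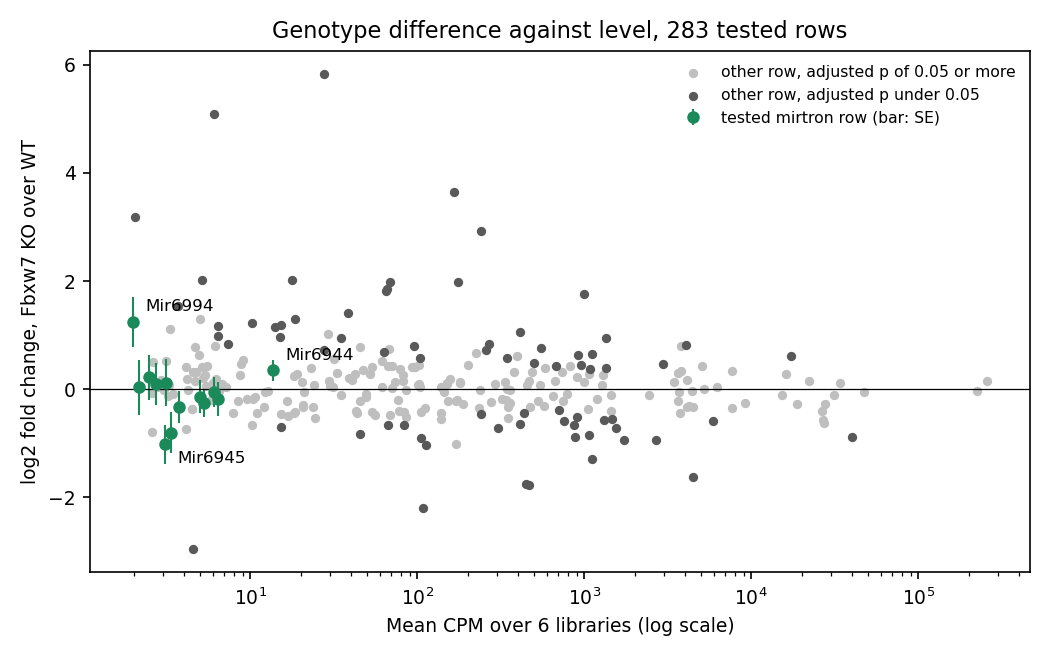
Log2 fold change of Fbxw7 KO over WT (vertical axis) against mean CPM over 6 libraries (horizontal axis, log scale) for the 283 tested rows; green points with SE bars are the 13 mirtrons, dark grey points other rows with an adjusted p under 0.05. The mirtrons sit at the low end of the levels, between −1.02 and 1.25.

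Below the filter, 7 more of the 20 rows with the most counts can only be described. Mir7040, at the acceptor of a 127-base intron of Loxl3, a lysyl oxidase-like gene of collagen crosslinking, had 17, 11 and 7 counts in WT and 2, 3 and 4 in Fbxw7 KO. Mir6975, in the RNA helicase gene Ddx39b, had 14, 11 and 9 counts in WT and 2, 3 and 5 in Fbxw7 KO. Scaled to CPM, neither overlapped between genotypes, and the Fbxw7 KO to WT ratios were 0.335 (95% interval 0.141 to 0.71) and 0.383 (0.169 to 0.792), counting error only. Among the 283 tested rows 43.8% did not overlap either, and the share among rows below the filter is not given here. Fitted without the filter, over 671 rows, their edgeR adjusted p were 0.0829 and 0.136. In that fit 10 of the 144 mirtrons with a count had an unadjusted p under 0.05, 3 higher and 7 lower in Fbxw7 KO (11.9% and 8.64% of all 671 rows), and 0 had an adjusted p under 0.05, against 70 of all rows (10.4%).

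Mir6952 in the polarity gene Scrib had 25 WT and 19 Fbxw7 KO counts, Mir7021 in Prdm2 23 and 16, Mir6899 in Klf7 24 and 13, and Mir7083 in Dock6 21 and 15. Of these, Mir6899 shows how far a row of this block can be from a short intron, since it sits at the acceptor of a 36269-base intron. In the acceptor-only group as a whole the median intron had 569 bases, 59 of the 169 introns were over 1000 bases and 26 were at most 100. The remaining 124 rows with counts had 34 or fewer each, with a median of 4.5. Counts in WT alone were found for 24 members, with at most 6 counts, and in Fbxw7 KO alone for 17, with at most 5. The WT libraries together held 1.35 times the counts of the Fbxw7 KO libraries, and the share over all rows is not given here. Nothing about the members can therefore be read from these numbers.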

How the data were processed

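Small RNA from 6 libraries was measured. Per the file headers, the authors counted reads per miRNA gene name with featureCounts 1.6.4, with strand ignored and without its options for reads with several alignments or over several features. Per the submitters' processing notes the build was mm10, and Cufflinks 2.2.1, deepTools, SAMtools 1.5 and TopHat2 2.1.1 were used, with no role given; trimming is not given in the sources used here. The deposited FPKM values equal the deposited counts over row length and a library constant (largest relative deviation 8.7e-15), and were used for levels per length and in alternatives.

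The count table was fitted as a whole in R 4.3.3 with edgeR 4.0.16 (filterByExpr with minimum count 10 and minimum total 15, TMM, robust glmQLFit, glmQLFTest, genotype as the only term). That fit was also run on simulated counts with the same spread for every row. This was a check of the code only and does not give the power for the mirtron rows. Alternatives were DESeq2 1.42.0, limma 3.58.1 on log2(FPKM + 1) or log2(FPKM + 10), other scalings, no filter, a replicate block and leaving out each library. Hairpin ends were matched exactly to GENCODE M21 introns. The text names the tested members, the 20 with most counts and 5 other miRNAs listed as splicing-derived. Other names were chosen after their values were seen. Members and lists were chosen with earlier results of these data known. Totals of 2932439 to 5019700 counts per library limit the precision, and intervals cover counting error only.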

Additional observations from a re-analysis of the deposited data

How the results depend on the processing

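The number of mirtrons called was 0 in 14 of 15 alternatives and 1, Mir6994, with limma on log2(FPKM + 10). With at least 3 counts required, 19 rather than 40 members were present in all 6 libraries. Mir7025 turned to −0.101 with limma on log2(FPKM + 1), with or without the filter, and to −0.0282 on log2(FPKM + 10). Leaving out each library in turn turned 7 of the 13 log2 fold changes. They ran from −0.393 to 0.0361 for Mir6911, −0.00546 to 0.479 for Mir6948, −0.162 to 0.301 for Mir7015, −0.29 to 0.506 for Mir7025, −0.218 to 0.0846 for Mir7068, −0.309 to 0.103 for Mir7070 and −0.173 to 0.543 for Mir7075. The other 6 kept their sign in all alternatives. The class difference stayed negative, from −23.2 CPM without WT replicate 1 to −8.43 CPM without WT replicate 3. Among all rows, 72 passed with all libraries and 48 with limma on log2(FPKM + 1) and no filter. Leaving out Fbxw7 KO replicate 2 gave 34, WT replicate 2 gave 35 and WT replicate 1 gave 42.

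With a replicate block 0 mirtrons and 76 rows passed. Same-numbered libraries correlated at −0.0601, 0.126 and 0.148 in their deviations from the genotype means, and 3 of 6 libraries correlated best with their own number. With 3 libraries per genotype such a check can neither show nor exclude pairing, and the labels only number the libraries.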
